A study of Homo sapiens with 18 samples.

Results

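The 9 genes described here encode parts of the machinery that fixes an epithelial cell to its basement membrane: the laminin chains LAMA3 and LAMB3, the transmembrane collagen COL17A1, the integrin subunits ITGA2, ITGA3, ITGA6 and ITGB4, and the plakins DST and PLEC. They were chosen by name, as rows of the deposited expression table, and make up 9 of its 26443 genes. RNA was sequenced from LNCaP cells, an established prostate cancer line of luminal type that carries the androgen receptor, in 18 libraries that form 6 groups of 3. The groups were a pGIPZ control vector, an shRNA against HIF1A (shHIF1A), an shRNA against FOXA1 (shFOXA1), both shRNAs together, pGIPZ with KC7F2, and shFOXA1 with KC7F2. All cells are labelled wild type, were infected with lentivirus for 5 days, and received 100 µM CoCl2, a chemical stand-in for hypoxia that keeps HIF1A protein stable, for 24 h before harvest. The control therefore carries the hypoxia mimic too, and no group without CoCl2 was analysed here. KC7F2, a small-molecule inhibitor of HIF1A, was given at 40 µM for 24 h. The design asks what LNCaP cells express when FOXA1, the factor that opens chromatin for the androgen receptor, is depleted, and how this depends on HIF1A.

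In stratified and glandular epithelia the hemidesmosome ties keratin filaments inside the cell to laminin outside it. Laminin-332, which holds the LAMA3 and LAMB3 chains, is the ligand; the integrin made of ITGA6 and ITGB4 and the collagen COL17A1 span the membrane; PLEC (plectin) and an epithelial form of DST (BP230) connect them to keratin. ITGA3 pairs with ITGB1 as a second laminin-332 receptor, and ITGA2 pairs with ITGB1 as a receptor for collagens and laminins. In the normal prostate these structures belong to basal cells, and their loss is a known feature of prostate adenocarcinoma.

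Values are RPKM, reads per kilobase of transcript scaled to the mapped reads of the library, so levels can be compared between genes; group levels are mean ± SD (n = 3). Changes are log2 differences ± SE of log2(RPKM + 0.5), tested with limma over 12900 genes that reached 1 RPKM in at least 3 libraries, and the words rise and fall are kept for a Benjamini-Hochberg adjusted p below 0.05. The added 0.5 shrinks the change of genes with low RPKM. All 9 genes passed that filter, COL17A1 only because 10 libraries reached 1 RPKM, ITGB4 because 9 did and DST because 6 did. Triplicates are stated, separate cultures are not, and the p-values therefore cover only the spread between these libraries. In these bulk samples a lower level may mean fewer expressing cells or less RNA per cell, and these cannot be told apart.

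The shRNA targets were checked first. FOXA1 stood at 97.5 ± 22.7 RPKM in control, 119.9 ± 3.06 in shHIF1A and 103 ± 20.01 in KC7F2, against 34.1 ± 1.51 in shFOXA1 and 39.3 ± 4.59 in shFOXA1 with KC7F2. The doubly infected cells kept 64.5 ± 5.77 RPKM of FOXA1, more than shFOXA1 alone (0.91 ± 0.16, adjusted p = 0.000302), and the part of this difference in the results below was not tested. HIF1A mRNA was 23.1 ± 7.91 RPKM in control, 89.9 ± 8.998 in shFOXA1, 3.56 ± 0.642 in shHIF1A and 4.32 ± 0.245 in the double knockdown. It was 17.3 ± 5.18 RPKM in KC7F2 and 62.8 ± 10.6 in shFOXA1 with KC7F2. Whether KC7F2 inhibited HIF1A protein in these cells was not tested. Depth, recovered from the spacing of the lowest values, was 3.29 to 12.1 (in units of 1e6 reads) per library, with 8.92 to 12.1 in the 3 groups without the FOXA1 shRNA and 3.29 to 9.23 in the 3 groups with it. Control 1 and KC7F2 1 and 3 carried more signal in short genes than the other libraries (0.35 to 0.48 log2 against at most 0.13), and calls named below that were lost or gained without these 3 libraries are given with their value.

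Before the values, 4 of the promoter windows show the sequence around the transcription starts of the genes on which the results turn. The windows are RefSeq's, on GRCh38.p14, 250 bases before to 50 after a start, written 5′ to 3′ on the gene's own strand. RefSeq windows were examined for 6 of the 9 genes (LAMA3, LAMB3, COL17A1, ITGA2, ITGA6 and DST), 11 windows in all. Capitals mark matches, on either strand, to ACGTG or GCGTG (the core of the hypoxia response element bound by HIF1A), TGTTTAC or TATTTAC (forkhead motifs of the FOXA1 family) or TGANTCA (the AP-1 motif).
LAMB3, chr1:209651325-209651624, minus strand: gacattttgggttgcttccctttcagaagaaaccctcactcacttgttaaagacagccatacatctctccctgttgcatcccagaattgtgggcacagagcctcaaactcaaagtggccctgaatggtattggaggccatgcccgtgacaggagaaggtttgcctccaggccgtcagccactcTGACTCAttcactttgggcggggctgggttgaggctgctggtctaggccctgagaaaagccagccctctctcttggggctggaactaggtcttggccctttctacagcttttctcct
LAMA3, chr18:23872770-23873069, plus strand: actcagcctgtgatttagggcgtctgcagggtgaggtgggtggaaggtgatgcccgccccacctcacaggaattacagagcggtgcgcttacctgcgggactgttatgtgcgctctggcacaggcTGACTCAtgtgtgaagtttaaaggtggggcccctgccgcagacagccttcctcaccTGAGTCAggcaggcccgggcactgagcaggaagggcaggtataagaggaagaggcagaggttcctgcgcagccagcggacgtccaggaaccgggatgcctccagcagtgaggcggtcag
COL17A1, chr10:104085831-104086130, minus strand: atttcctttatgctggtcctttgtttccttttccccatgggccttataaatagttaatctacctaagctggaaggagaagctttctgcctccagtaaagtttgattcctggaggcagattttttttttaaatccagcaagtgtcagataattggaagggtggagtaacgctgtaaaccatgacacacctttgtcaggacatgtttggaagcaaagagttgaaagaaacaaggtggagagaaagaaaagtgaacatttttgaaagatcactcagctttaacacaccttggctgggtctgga
ITGA6, chr2:172427086-172427385, plus strand: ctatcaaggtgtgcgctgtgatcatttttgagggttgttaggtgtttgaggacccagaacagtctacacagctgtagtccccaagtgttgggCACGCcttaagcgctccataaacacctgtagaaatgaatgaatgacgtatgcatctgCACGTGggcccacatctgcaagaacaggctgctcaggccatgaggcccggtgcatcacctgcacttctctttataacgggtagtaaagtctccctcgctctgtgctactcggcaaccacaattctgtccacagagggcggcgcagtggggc
LAMB3 has 3 windows, of which the one printed is the only one with a match, 1 for AP-1 at position 184. The other two, which include the one at the gene's annotated 5′ end, hold 0 matches to any of the motifs. The LAMA3 window holds 2 AP-1 matches, at positions 126 and 182, counted from the first base shown. It is the only window for LAMA3 and lies inside the gene, downstream of the annotated 5′ end at 23689443. RPKM per gene does not separate transcripts that start there from others. TGANTCA occurs in 7.71% of all 35116 windows of this length. The ITGA6 window printed, 1 of 2, holds ACGTG on both strands at positions 150 and 151, which overlap, and GCGTG at position 93, and the other holds ACGTG once; these motifs occur in 21.4% and 36.5% of windows. No forkhead match was found in any of the 11 windows (TGTTTAC occurs in 3.42% and TATTTAC in 2.67% of windows), and the COL17A1 window held no match to any of the motifs. Among the windows not printed, a DST window (chr6:56954781-56955080) holds ACGTG at positions 63 and 64, which overlap, and AP-1 at position 276. The ITGA2 window holds GCGTG at position 83. A match describes letters in these windows and says nothing on binding.

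The 9 genes fell into different patterns across the 6 groups. LAMB3 and COL17A1 were low in control, and were higher after either shRNA and highest with the FOXA1 shRNA. ITGA6 was highest in the groups that carried the FOXA1 shRNA without the HIF1A shRNA. ITGA3 and ITGB4 were highest in the groups with the HIF1A shRNA, and KC7F2 alone changed none of the 9. The plot of levels by library shows these patterns gene by gene.

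**Figure D1:**
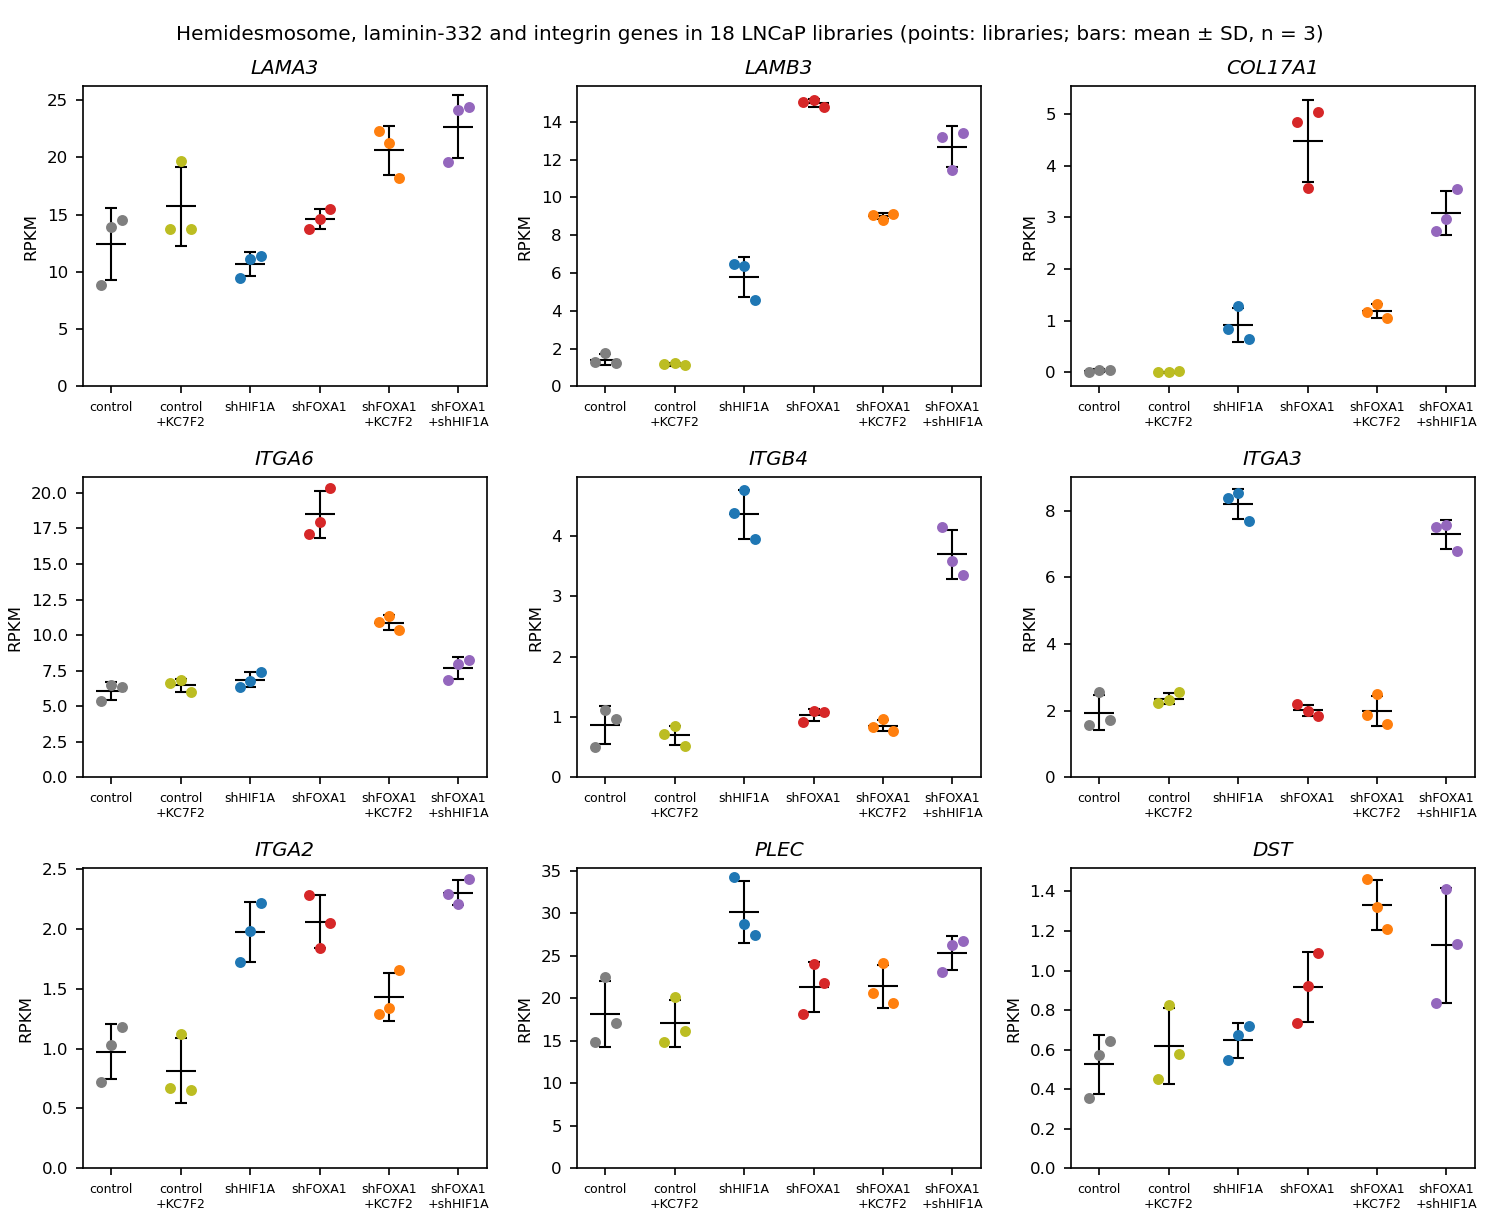
Level of each of the 9 genes in RPKM (vertical axis, from 0 except for the margin below 0 in the COL17A1 panel) in the 6 groups; points are libraries, and bars show mean ± SD (n = 3). LAMB3 lay at 1.10 to 1.75 in the control and KC7F2 groups and at 14.8 to 15.2 in shFOXA1, while ITGB4 lay at 3.36 to 4.75 in both groups with the HIF1A shRNA and at most at 1.11 elsewhere.

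FOXA1 knockdown against control raised 4 of the 9 genes, LAMB3, COL17A1, ITGA6 and ITGA2, and lowered none. Over all genes tested, 9.52% rose and 14.6% fell in this comparison. The 3 shFOXA1 libraries lay apart from the 3 control libraries for 5 of the 9 genes, against 35.1% of all genes. The median change of the 9 was 0.47, and that of all genes tested was -0.09. HIF1A knockdown against control raised 6 (LAMB3, COL17A1, ITGA2, ITGA3, ITGB4 and PLEC) and lowered none, where 25.9% of all genes rose and 16.1% fell. Groups lay apart for these 6 genes, against 47.6% of all genes, and the median change was 0.75 against 0.07 for all genes.

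KC7F2 against control changed none of the 9 by limma, and none had an unadjusted p below 0.05, where 2.04% of all genes were called. No member's groups lay apart, against 14.6% of all genes. The changes ran from -0.19 (LAMB3) to 0.34 (LAMA3), and the 95% intervals of the 9 changes (with 12 residual degrees of freedom) lay between -0.54 and 0.71. The HIF1A shRNA was also set against KC7F2 directly, a comparison added after the data were seen. In FOXA1-replete cells it gave 6 of 9 genes higher and 1, LAMA3, lower, where 23.0% of all genes were higher and 19.6% lower. The same comparison in cells with the FOXA1 shRNA gave 5 higher and 1, ITGA6, lower, where 23.4% of all genes were higher and 13.2% lower.

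On top of FOXA1 knockdown, the HIF1A shRNA raised 3 of the 9 genes (LAMA3, ITGA3 and ITGB4) and lowered 1 (ITGA6), where 24.0% of all genes rose and 13.5% fell. KC7F2 on top of FOXA1 knockdown raised none and lowered 3 (LAMB3, COL17A1 and ITGA6), where 2.37% of all genes fell. Groups lay apart for 6 of the 9 genes in this last comparison, against 25.6% of all genes, and not all in the same direction. LAMB3, COL17A1, ITGA6 and ITGA2 lay lower with KC7F2. LAMA3 (18.2 to 22.3 against 13.7 to 15.5 RPKM) and DST (1.21 to 1.46 against 0.737 to 1.09 RPKM) lay higher, and neither was called. These comparisons, and those of FOXA1 knockdown with control, share the shFOXA1 libraries. The split of all genes called into higher and lower moved with the scaling of the libraries: with median-ratio scaling the share higher went from 39.5 to 51.0% for FOXA1 knockdown and from 51.3 to 34.0% for KC7F2. It went from 64.0 to 48.7% for the HIF1A shRNA on FOXA1 knockdown, from 26.9 to 50.7% for FOXA1 knockdown on KC7F2, and from 64.0 to 50.3% for the HIF1A shRNA against KC7F2 on FOXA1 knockdown. The directions given for the 9 genes held under median-ratio scaling. The plot of changes sets the 5 comparisons side by side.

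**Figure D2:**
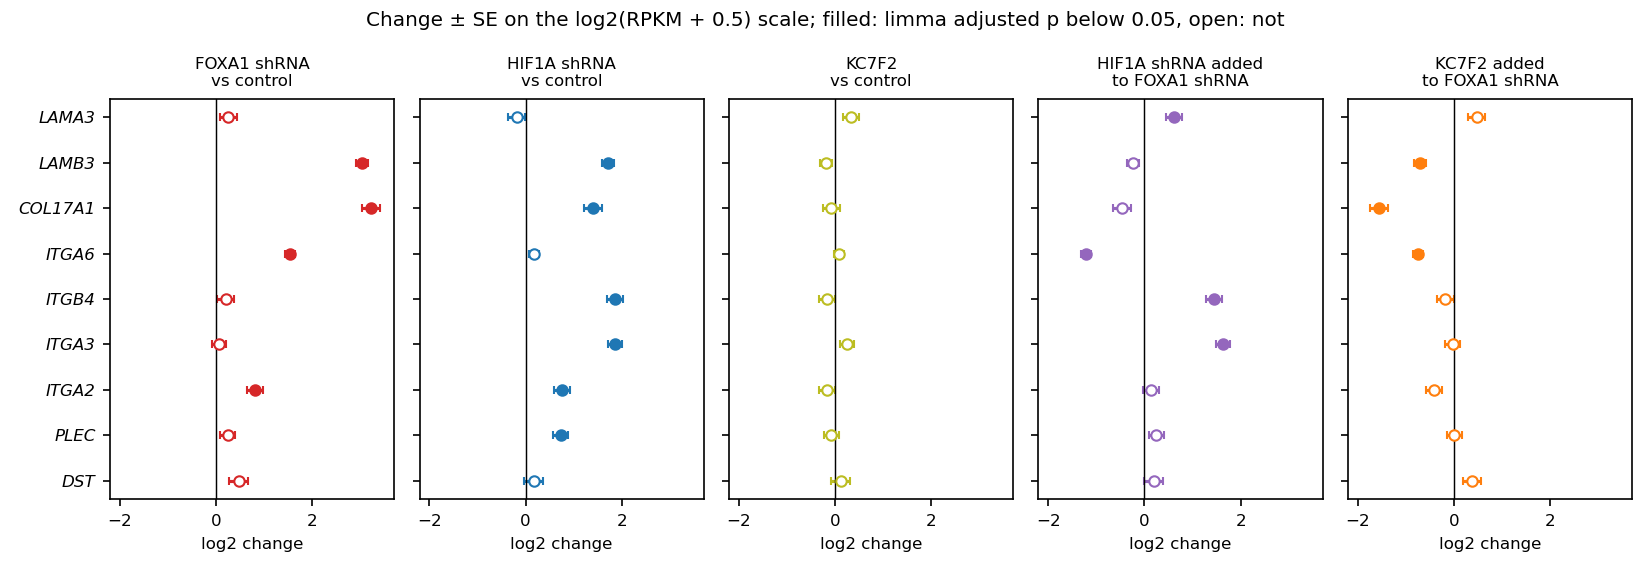
Change ± SE on the log2(RPKM + 0.5) scale (horizontal axis) of the 9 genes in 5 comparisons, 1 panel each; filled points have a limma adjusted p below 0.05. ITGB4 and ITGA3 change with the HIF1A shRNA in both backgrounds, ITGA6 falls by 1.21 when that shRNA is added to FOXA1 knockdown, and no point is filled for KC7F2 against control.

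LAMB3 (chromosome 1, 209614870 to 209652466, minus strand, GENCODE 29 on GRCh38) encodes the beta chain found in laminin-332 alone. Control libraries held 1.27, 1.75 and 1.21 RPKM, and KC7F2 libraries held 1.16, 1.24 and 1.10. With the HIF1A shRNA the values were 6.45, 6.39 and 4.58, with the FOXA1 shRNA 15.03, 15.2 and 14.8, with both 13.2, 11.4 and 13.4, and with the FOXA1 shRNA and KC7F2 9.07, 8.81 and 9.11. From lowest to highest the order was KC7F2, control, shHIF1A, shFOXA1 with KC7F2, double knockdown and shFOXA1, and of these neighbours only KC7F2 and control overlapped.

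LAMB3 rose by 3.03 ± 0.13 after FOXA1 knockdown (adjusted p = 7.84e-11), which is 10.6-fold in mean RPKM, and by 1.72 ± 0.13 after HIF1A knockdown (adjusted p = 3.82e-08), 4.12-fold in mean RPKM. On top of the HIF1A shRNA the FOXA1 shRNA raised it by only 1.07 ± 0.13 (adjusted p = 2.46e-05), and the interaction of the shRNAs was -1.96 ± 0.18 (adjusted p = 3.88e-06): the double knockdown lay below the sum of the single changes. The HIF1A shRNA added to FOXA1 knockdown gave -0.24 ± 0.13 (adjusted p = 0.156), although the library ranges did not overlap. KC7F2 added to FOXA1 knockdown lowered LAMB3 by 0.70 ± 0.13 (adjusted p = 0.00334), with all 3 libraries below all 3 of shFOXA1. With KC7F2 present, the FOXA1 shRNA raised LAMB3 by 2.51 ± 0.13 (adjusted p = 7.33e-10). Against KC7F2, the HIF1A shRNA gave 1.90 ± 0.13 in FOXA1-replete cells (adjusted p = 1.16e-08) and 0.47 ± 0.13 with the FOXA1 shRNA (adjusted p = 0.00772).

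LAMA3 (chromosome 18, 23689443 to 23956222, plus strand) encodes the alpha chain of laminin-332, from a gene with several promoters whose forms RPKM per gene does not separate. Libraries held 8.85, 13.9 and 14.5 RPKM in control, 9.47, 11.1 and 11.4 with the HIF1A shRNA, 13.7, 14.7 and 15.5 with the FOXA1 shRNA, and 13.8, 19.7 and 13.7 with KC7F2. The double knockdown was highest at 19.6, 24.1 and 24.4, followed by shFOXA1 with KC7F2 at 22.3, 21.3 and 18.2. Each group overlapped its neighbour in the order of means.

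Neither shRNA alone changed LAMA3 (0.26 ± 0.17 for FOXA1, adjusted p = 0.303; -0.19 ± 0.17 for HIF1A, adjusted p = 0.417). In cells with the HIF1A shRNA, the FOXA1 shRNA raised LAMA3 by 1.05 ± 0.17 (adjusted p = 0.000539), 2.13-fold in mean RPKM. In cells with the FOXA1 shRNA, the HIF1A shRNA raised it by 0.61 ± 0.17 (adjusted p = 0.0104), a call lost with median-ratio scaling (0.49, adjusted p = 0.0549). The interaction was 0.79 ± 0.24, the opposite sign to LAMB3, but did not pass (adjusted p = 0.0571). Without control 1, the lowest control library, it was 1.01 (adjusted p = 0.00578), and without the 3 libraries rich in short genes also 1.01 (adjusted p = 0.00204). With length and GC trends within libraries removed it was 0.96 (adjusted p = 0.000379), and with median-ratio scaling 0.75 (adjusted p = 0.102). HIF1A knockdown against KC7F2 lowered LAMA3 by 0.52 ± 0.17 (adjusted p = 0.0218), a call lost without shHIF1A 1 (adjusted p = 0.0839) or KC7F2 2 (adjusted p = 0.113).

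Chains of other laminins were measured as well. LAMC1, a gamma chain of other laminins, held 222 ± 46.9 RPKM in control and 115 ± 0.691 in shFOXA1, a fall of 0.92 ± 0.15 (adjusted p = 0.000267). LAMB1, a beta chain of other laminins, rose from 0.741 ± 0.269 to 4.36 ± 0.368 RPKM with FOXA1 knockdown (1.99 ± 0.19, adjusted p = 7.7e-07), and the interaction of the shRNAs on it was -2.03 ± 0.27 (adjusted p = 0.000138). LAMB2, another beta chain, did not pass with FOXA1 knockdown (30.8 ± 3.42 against 26.7 ± 1.99 RPKM) and rose to 71.3 ± 5.37 RPKM with HIF1A knockdown (1.20 ± 0.10, adjusted p = 1.48e-07).

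**Figure D3:**
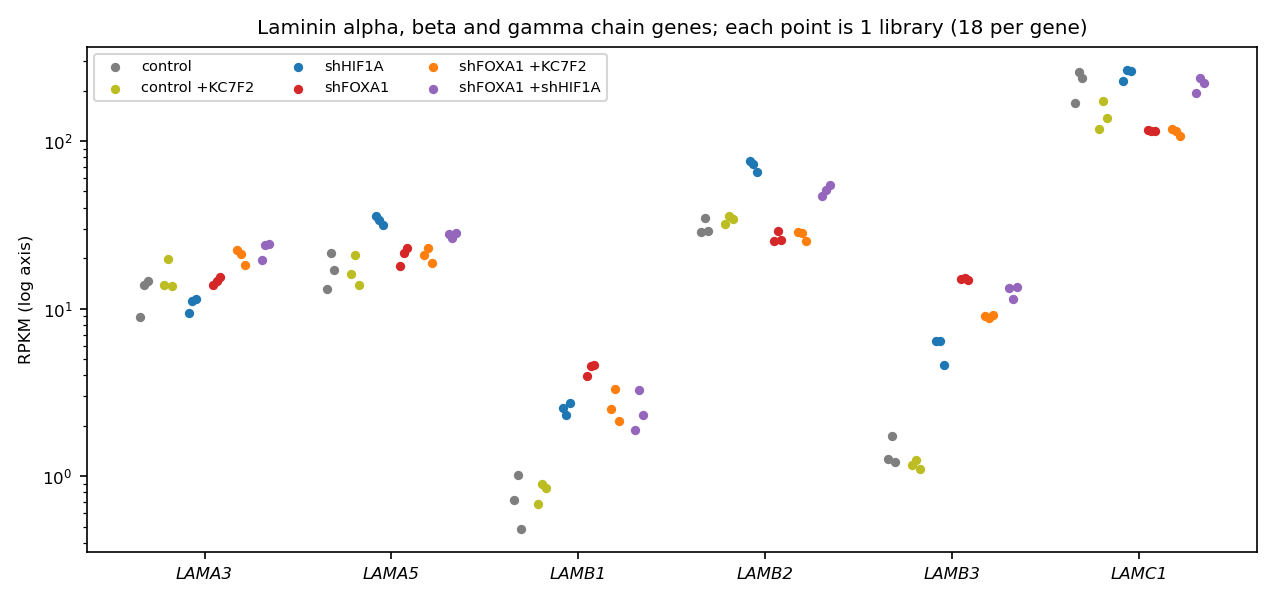
RPKM (log axis) of 6 laminin chain genes; each point is 1 library, coloured by group. Over the 18 libraries LAMB3 spans 1.10 to 15.2 and LAMC1 lies between 107 and 265.

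COL17A1 (chromosome 10, 104031286 to 104085957, minus strand) encodes the hemidesmosomal collagen BP180, whose outer part is shed by ADAM proteases. Control libraries held 0, 0.0462 and 0.0518 RPKM and KC7F2 libraries 0, 0 and 0.0184, which is 6 and 1 reads in total. The HIF1A shRNA gave 0.844, 1.28 and 0.641 RPKM (171 reads), the FOXA1 shRNA 4.84, 3.56 and 5.03 (477 reads), both 2.74, 2.97 and 3.55 (326 reads), and the FOXA1 shRNA with KC7F2 1.16, 1.33 and 1.06 (162 reads). The order of means was KC7F2, control, shHIF1A, shFOXA1 with KC7F2, double knockdown and shFOXA1; the first pair and the shHIF1A and shFOXA1 with KC7F2 pair overlapped.

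COL17A1 rose by 3.21 ± 0.18 after FOXA1 knockdown (adjusted p = 2.46e-09) and by 1.39 ± 0.18 after HIF1A knockdown (adjusted p = 1.8e-05). The control level rests on 6 reads, and relative to library depth the reads rose 140-fold (95% exact interval 63.7 to 382) for FOXA1 knockdown and 29.3-fold (13.2 to 81.0) for HIF1A knockdown, with intervals that cover counting error only. In cells with the HIF1A shRNA, FOXA1 knockdown raised COL17A1 by 1.35 ± 0.18 (adjusted p = 0.000104), 3.39-fold in reads (2.81 to 4.11). The interaction of the shRNAs was -1.86 ± 0.26 (adjusted p = 0.000247). The HIF1A shRNA added to FOXA1 knockdown gave -0.47 ± 0.18, which did not pass (adjusted p = 0.0576), although the ranges did not overlap. Against KC7F2, the HIF1A shRNA gave 1.47 ± 0.18 in FOXA1-replete cells (adjusted p = 1.03e-05) and 1.09 ± 0.18 with the FOXA1 shRNA (adjusted p = 0.000223).

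KC7F2 added to FOXA1 knockdown lowered COL17A1 by 1.55 ± 0.18 (adjusted p = 8.94e-05), to 0.261 of its reads relative to depth (0.217 to 0.313). The interaction of FOXA1 knockdown with KC7F2 was -1.48 ± 0.26 (adjusted p = 0.0469). This value depends on the added 0.5. In reads relative to depth, FOXA1 knockdown gave 216-fold (38.3 to 8592) in KC7F2-treated cells against the 140-fold above, so the ratio was not lower there, and the intervals overlap. The adjusted p was 0.296 with 0.1 added instead, and between 0.0435 and 0.134 when 1 library was left out and 0.364 without the 3 libraries rich in short genes.

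ITGA6 (chromosome 2, 172427354 to 172506282, plus strand) encodes the alpha subunit that pairs with ITGB4 in hemidesmosomes and with ITGB1 elsewhere. Control libraries held 5.33, 6.51 and 6.32 RPKM, KC7F2 libraries 6.65, 6.81 and 5.97, shHIF1A 6.36, 6.78 and 7.43, and the double knockdown 6.82, 7.97 and 8.27. Above these 4 groups, each of which overlapped its neighbour, stood shFOXA1 with KC7F2 at 10.9, 11.4 and 10.3, and shFOXA1 at 17.1, 18.0 and 20.4, with no overlap.

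FOXA1 knockdown raised ITGA6 by 1.54 ± 0.10 (adjusted p = 1.61e-08), 3.05-fold in mean RPKM, and HIF1A knockdown gave 0.17 ± 0.10 (adjusted p = 0.212). In cells with the HIF1A shRNA, FOXA1 knockdown gave only 0.15 ± 0.10 (adjusted p = 0.379), and the interaction was -1.38 ± 0.15 (adjusted p = 1.84e-05). The HIF1A shRNA added to FOXA1 knockdown lowered ITGA6 by 1.21 ± 0.10 (adjusted p = 1.92e-07), to 0.416 of its mean RPKM. KC7F2 added to FOXA1 knockdown lowered it by 0.74 ± 0.10 (adjusted p = 0.000406), less than the HIF1A shRNA did (difference -0.48 ± 0.10, adjusted p = 0.00187). With KC7F2 present, FOXA1 knockdown raised ITGA6 by 0.70 ± 0.10 (adjusted p = 9.71e-05), and the interaction with KC7F2 was -0.83 ± 0.15 (adjusted p = 0.0469). That call was lost without any 1 of the 12 libraries it rests on (adjusted p 0.0536 to 0.135), with the value between -0.88 and -0.75, and without the 3 libraries rich in short genes (-0.82, adjusted p = 0.318).

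ITGB4 (chromosome 17, 75721328 to 75757818, plus strand) encodes the beta subunit with a long cytoplasmic tail that binds plectin. The FOXA1 shRNA changed it in none of its 3 comparisons, 2 of which raised its partner ITGA6. Control libraries held 0.507, 1.11 and 0.973 RPKM, shFOXA1 0.919, 1.10 and 1.08, KC7F2 0.721, 0.844 and 0.526, and shFOXA1 with KC7F2 0.841, 0.959 and 0.770. Each of these 4 groups overlapped its neighbour in the order of means, while the lowest shFOXA1 library lay above the highest of KC7F2. With the HIF1A shRNA the values were 4.37, 4.75 and 3.94, and with both shRNAs 4.14, 3.58 and 3.36; these groups overlapped each other and lay above all the rest.

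HIF1A knockdown raised ITGB4 by 1.86 ± 0.17 (adjusted p = 4.45e-07), 5.05-fold in mean RPKM, and by 1.45 ± 0.17 on top of FOXA1 knockdown (adjusted p = 7.06e-06). The interaction of -0.41 ± 0.24 did not pass (adjusted p = 0.361), and FOXA1 knockdown gave 0.20 ± 0.17 in control cells (adjusted p = 0.44). Against KC7F2, the HIF1A shRNA gave 2.03 ± 0.17 in FOXA1-replete cells (adjusted p = 1.71e-07) and 1.63 ± 0.17 with the FOXA1 shRNA (adjusted p = 2.1e-06).

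ITGA3 (chromosome 17, 50055968 to 50090481, plus strand), the alpha subunit of the other main laminin-332 receptor, had a pattern close to that of ITGB4. Libraries held 1.56, 2.56 and 1.72 RPKM in control, 2.20, 1.99 and 1.85 in shFOXA1, 1.86, 2.496 and 1.61 in shFOXA1 with KC7F2, and 2.22, 2.31 and 2.57 in KC7F2. The double knockdown held 7.51, 7.58 and 6.80 and shHIF1A 8.39, 8.53 and 7.70, apart from each other and from the rest. HIF1A knockdown raised ITGA3 by 1.85 ± 0.15 (adjusted p = 1e-07), 4.22-fold in mean RPKM, and by 1.64 ± 0.15 on top of FOXA1 knockdown (adjusted p = 3.59e-07), and against KC7F2 by 1.60 ± 0.15 and 1.66 ± 0.15 in the same backgrounds (adjusted p at most 4.31e-07). The interaction was -0.22 ± 0.21 (adjusted p = 0.599).

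ITGA2 (chromosome 5, 52989326 to 53094779, plus strand) held 0.723, 1.03 and 1.18 RPKM in control and 0.669, 1.13 and 0.652 in KC7F2. It held 1.72, 1.98 and 2.22 in shHIF1A, 2.28, 1.84 and 2.05 in shFOXA1, 2.29, 2.20 and 2.41 in the double knockdown, and 1.29, 1.34 and 1.66 in shFOXA1 with KC7F2. FOXA1 knockdown raised it by 0.80 ± 0.17 (adjusted p = 0.00197) and HIF1A knockdown by 0.75 ± 0.17 (adjusted p = 0.00172), about 2.11-fold and 2.02-fold in mean RPKM. The groups with either shRNA or both overlapped, and the interaction of -0.62 ± 0.23 did not pass (adjusted p = 0.133). With KC7F2 present, FOXA1 knockdown gave 0.57 ± 0.17 (adjusted p = 0.0157), a call lost without KC7F2 1, KC7F2 3 or shFOXA1 with KC7F2 3 (adjusted p 0.0637 to 0.0721) and without the 3 libraries rich in short genes (0.24, adjusted p = 0.472). Against KC7F2 the HIF1A shRNA gave 0.92 ± 0.17 in FOXA1-replete cells (adjusted p = 0.000314) and 0.54 ± 0.17 with the FOXA1 shRNA (adjusted p = 0.0172), the latter lost with median-ratio scaling (adjusted p = 0.0595) and without double knockdown 3, shFOXA1 with KC7F2 1 or shFOXA1 with KC7F2 2 (adjusted p 0.0518 to 0.0623).

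The FOXA1 shRNA was also compared within each inhibited background. On the HIF1A shRNA, FOXA1 knockdown raised 3 of the 9 genes (LAMA3, LAMB3 and COL17A1) and lowered none, where 5.27% of all genes rose. On KC7F2 it raised 5 (LAMB3, COL17A1, ITGA6, ITGA2 and DST) and lowered none, where 8.88% of all genes rose.

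**Figure D4:**
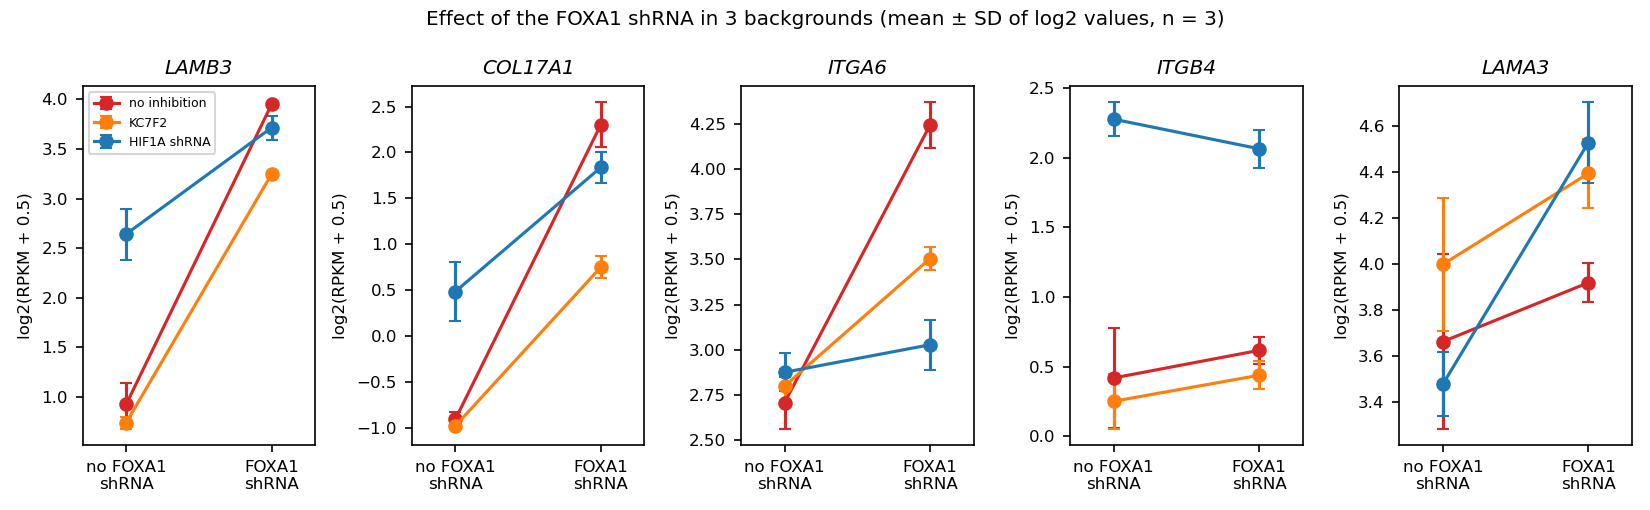
Mean ± SD (n = 3) of log2(RPKM + 0.5) without and with the FOXA1 shRNA, in cells with no further inhibition, with KC7F2 and with the HIF1A shRNA, for 5 genes. The ITGA6 line is nearly flat with the HIF1A shRNA (0.15) and steep without it (1.54), the ITGB4 lines run near level at different heights, and LAMA3 is steepest with the HIF1A shRNA (1.05).

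The plakins PLEC and DST are long genes, with 17.0 and 42.3 kb of annotated exon and a GC content of 67.0 and 41.3%. PLEC was lowest in the 3 libraries rich in short genes, and DST was towards its low end there. Within shHIF1A, however, PLEC was highest in replicate 1, whose short-minus-long difference was also the highest of that group (0.13 log2). PLEC (chromosome 8, 143915147 to 143976734, minus strand) held 14.9, 22.5 and 17.1 RPKM in control and 34.3, 28.7 and 27.5 in shHIF1A, which lay above every other library of the series. HIF1A knockdown raised it by 0.73 ± 0.15 (adjusted p = 0.00127), and the change was 0.81 ± 0.15 against KC7F2 (adjusted p = 0.000544). Removal of length and GC trends within libraries left 0.12 against control (adjusted p = 0.232) and 0.27 against KC7F2 (adjusted p = 0.00769). Length and GC were removed together, so their parts cannot be told apart. Without the 3 libraries rich in short genes the change against control was 0.60 (adjusted p = 0.00677). In the other groups PLEC ranged from 14.9 to 26.7 RPKM, and no other comparison with control passed.

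DST (chromosome 6, 56457987 to 56954628, minus strand) held 0.357, 0.574 and 0.644 RPKM in control, 0.449, 0.828 and 0.577 in KC7F2 and 0.549, 0.674 and 0.720 in shHIF1A. The groups with the FOXA1 shRNA were higher in mean, at 0.737, 0.923 and 1.09 with that shRNA alone, 0.834, 1.41 and 1.13 with both and 1.46, 1.32 and 1.21 with KC7F2. FOXA1 knockdown gave 0.47 ± 0.20 in control cells, with no overlap of libraries but an adjusted p of 0.0936. Under KC7F2 it gave 0.72 ± 0.20 (adjusted p = 0.01), a call lost without KC7F2 1 (adjusted p = 0.0555) and without the 3 libraries rich in short genes (0.46, adjusted p = 0.296). With the length and GC trend removed it was 0.39 (adjusted p = 0.0555). RPKM per gene does not separate the epithelial form of DST from its neuronal and muscle forms.

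**Figure D5:**
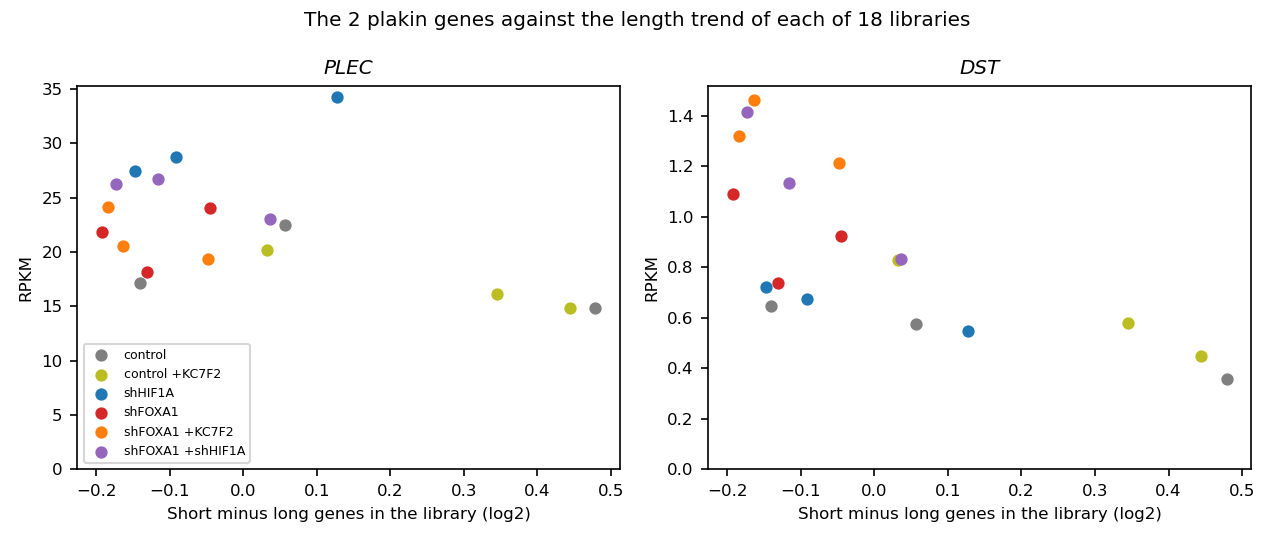
PLEC and DST level in RPKM (vertical axis) against the short-minus-long difference of each of the 18 libraries (log2, horizontal axis), coloured by group. The 3 libraries at 0.35 to 0.48, control 1 and KC7F2 1 and 3, are low for PLEC (14.9 to 16.1) and for DST (0.357 to 0.577).

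The interaction of the shRNAs was called for 3 of the 9 genes, LAMB3, COL17A1 and ITGA6, all lower than the single changes add up to, where 4.45% of all genes were called lower. The interaction of FOXA1 knockdown with KC7F2 was called for COL17A1 and ITGA6, both lower, where 0.062% of all genes were called lower. HIF1A mRNA itself had an interaction of -1.74 ± 0.33 (adjusted p = 0.00326) with the shRNAs, and FOXA1 one of 0.58 ± 0.22 (adjusted p = 0.142).

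Genes with the most similar pattern were sought among all tested genes by the root mean square difference of the 6 centred group means on the log2 scale. LAMB3 was nearest to FOSL2, an AP-1 subunit gene (difference 0.174), then EDN2 (0.268) and SOX9 (0.277), where the median over all genes was 1.34. FOSL2 held 13.98 RPKM in control, 11.6 in KC7F2, 36.9 in shHIF1A, 69.1 in shFOXA1 with KC7F2, 85.2 in shFOXA1 and 98.7 in the double knockdown. COL17A1 was nearest to EDN2 (0.181), SGK1 (0.249) and EMP1 (0.298), against a median of 1.302. ITGB4 was nearest to GATSL3 (0.0885), the carbonic anhydrase gene CA12 (0.124) and AKNA (0.137), against 0.836. LAMA3 was nearest to CRYZ (0.0689), PIP5KL1 (0.0967) and KCNH8 (0.103), against 0.478. The nearest of all tested genes lie below the median by construction, so the medians give only the scale. Whether any of these genes is linked to the members was not tested.

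Genes around the 9 were followed as lists of the same adhesion system. Over all genes tested, HIF1A knockdown raised 25.9% and lowered 16.1%, and FOXA1 knockdown raised 9.52% and lowered 14.6%. KC7F2 against control called 2.04%. The HIF1A shRNA on top of FOXA1 knockdown raised 24.0% and lowered 13.5%. Of 19 other laminin and basement membrane genes, 11 were tested. HIF1A knockdown raised 9 and lowered 0 of them, with a median change of 1.03 against 0.07 for all genes (7 raised and a median of 0.47 with the length and GC trend removed), among them LAMB2, the laminin receptor BCAM (1.13 ± 0.14, adjusted p = 6.49e-06) and the proteoglycan AGRN (1.03 ± 0.14, adjusted p = 1.85e-05). FOXA1 knockdown raised 2 and lowered 3, with LAMB1 up and BCAM (-1.10 ± 0.14, adjusted p = 1.46e-05) and LAMC1 down, and a median of 0.03 against -0.09. The latter list median was -0.11 with the trend removed. KC7F2 lowered 2 in control cells, COL4A5 (-0.51 ± 0.11, adjusted p = 0.0183) and LAMC1 (-0.63 ± 0.15, adjusted p = 0.0407). Both calls were lost when only control and KC7F2 libraries were fitted (adjusted p = 0.272 for COL4A5 and 0.506 for LAMC1), when some single libraries were left out, and without the 3 libraries rich in short genes (adjusted p = 0.541 and 0.172). It changed 0 in FOXA1 knockdown cells, while the HIF1A shRNA there raised 6 and lowered 1.

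Of 17 other integrin genes with the tetraspanin CD151, 7 were tested. HIF1A knockdown raised 6, with a median of 0.63, where 25.9% of all genes rose. ITGA5, the fibronectin receptor subunit, rose from 5.17 ± 0.958 to 22.6 ± 4.54 RPKM (2.02 ± 0.14, adjusted p = 2.91e-08), and ITGB1, the partner of ITGA2, ITGA3 and ITGA6, rose from 43.5 ± 6.23 to 78.0 ± 8.07 RPKM (0.84 ± 0.12, adjusted p = 2.81e-05). FOXA1 knockdown raised 1, ITGB8 (1.79 ± 0.21, adjusted p = 1.05e-05), and lowered 1, CD151, which binds laminin-binding integrins (-0.58 ± 0.17, adjusted p = 0.0195). These counts stand beside 9.52% of all genes raised and 14.6% lowered in that comparison. CD151 no longer passed when any of 4 libraries was left out (control 1 and 2, shFOXA1 1 and 3), with an adjusted p of up to 0.092, nor without the 3 libraries rich in short genes (-0.45, adjusted p = 0.107). Of 5 other plakin genes, HIF1A knockdown raised 4, led by periplakin PPL (1.06 ± 0.14, adjusted p = 2.13e-05), and FOXA1 knockdown raised 1, PPL (0.48 ± 0.14, adjusted p = 0.021). Over all genes, HIF1A knockdown raised 25.9% and FOXA1 knockdown 9.52%. With median-ratio scaling HIF1A knockdown raised 2 of the 5, and the PPL call under FOXA1 knockdown was lost without control 1, control 3, shFOXA1 2 or shFOXA1 3 (adjusted p = 0.0605 to 0.0912) and without the 3 libraries rich in short genes (0.42, adjusted p = 0.055). MACF1, 1 of the 4 raised by HIF1A knockdown, did not pass without these libraries either (0.38, adjusted p = 0.0603).

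Focal adhesion genes encode the actin-linked counterpart of hemidesmosomes. Of 14 tested, FOXA1 knockdown raised 4 and lowered 1, with paxillin PXN (0.88 ± 0.09, adjusted p = 2.05e-06), talin TLN2 (1.15 ± 0.18, adjusted p = 0.000136) and vinculin VCL (0.83 ± 0.17, adjusted p = 0.00224) up, where 9.52% of all genes were called higher and 14.6% lower. HIF1A knockdown raised 11 and lowered 1, with zyxin ZYX (0.65 ± 0.12, adjusted p = 0.000361) as the first by adjusted p. Over all genes, 25.9% rose and 16.1% fell in that comparison. With median-ratio scaling, and likewise with the length and GC trend removed, HIF1A knockdown raised 7 of the 14. On top of FOXA1 knockdown the HIF1A shRNA lowered PXN by 0.63 ± 0.09 (adjusted p = 4.73e-05). Of 5 tested proteases that process laminin-332 or COL17A1, HIF1A knockdown raised 3, ADAM10 (0.71 ± 0.08, adjusted p = 2.03e-06), BMP1 (1.40 ± 0.15, adjusted p = 2.14e-06) and FURIN (0.53 ± 0.12, adjusted p = 0.00162), and FOXA1 knockdown changed 0 by limma, with ADAM9 and ADAM17 at an unadjusted p below 0.05 (adjusted p = 0.135 and 0.0586) and 1 called with median-ratio scaling. With the length and GC trend removed FURIN was at 0.21 (adjusted p = 0.0787).

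The cell identity behind these levels was checked with marker lists. All 7 luminal markers reached 1 RPKM in each group, and their summed RPKM was 1382 to 1827 for control, 1188 to 1317 for KC7F2, 1244 to 1360 for shFOXA1 with KC7F2, 1206 to 1350 for shFOXA1, 799.6 to 980.1 for shHIF1A and 707 to 804 for the double knockdown. Against control, 3 of the 7 were called lower and 1 higher with KC7F2, 2 lower and 1 higher with FOXA1 knockdown, and 4 lower and 0 higher with HIF1A knockdown. Over all genes, 2.04% were called with KC7F2. FOXA1 knockdown raised 9.52% of all genes and lowered 14.6%, and HIF1A knockdown raised 25.9% and lowered 16.1%. With KC7F2 the calls of FOLH1 (higher) and KLK3 (lower) were lost without the 3 libraries rich in short genes (adjusted p = 0.228 and 0.142). The 11 basal markers summed to 11.4 to 12.3 RPKM for KC7F2, 12.2 to 13.6 for control, 14.8 to 17.6 for shFOXA1 with KC7F2, 17.6 to 19.0 for shHIF1A, 17.2 to 20.1 for shFOXA1 and 24.3 to 25.7 for the double knockdown. Single genes carried much of both sums. Over the 18 libraries the basal marker DSC3 held 6.93 to 11.1 RPKM and the luminal marker KLK3 267 to 958 RPKM. Of 6 basal markers tested, FOXA1 knockdown raised 3, TRIM29 (1.72 ± 0.17, adjusted p = 1.75e-06), KRT15 (1.52 ± 0.23, adjusted p = 0.000106) and KRT14 (1.21 ± 0.22, adjusted p = 0.000774). HIF1A knockdown raised 3, TRIM29, KRT15 and CDH3, and lowered 1, so the tested basal markers did not all move the same way. Names follow adjusted p, up to 3 per list, and the 1 lowered is therefore not named. The defining basal genes stayed at the floor: KRT5 was listed at 0 in all 18 libraries and TP63 held at most 0.0199 RPKM. Fibroblast markers summed to 2.62 to 3.50 RPKM in control and 7.97 to 9.26 in shHIF1A. Of these 6 markers only COL1A1 and COL3A1 passed the filter. COL1A2, DCN, LUM and PDGFRB held at most 0.0162, 0.189, 0.307 and 0.123 RPKM in any library. Endothelial markers summed to 0.548 to 0.794 RPKM in control and 2.11 to 2.72 in shHIF1A. Only VWF of these passed the filter, while PECAM1 held at most 0.0449 RPKM in any library. Leukocyte markers summed to 0.152 to 1.37 RPKM over all libraries. The part of these markers' sources in the changes of the 9 genes was not tested.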

How the data were processed

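RNA was measured in 18 LNCaP libraries (6 groups of 3) prepared with the NEBNext Ultra kit, per the labels' protocols. The authors deposited RPKM values per gene. The submitters' processing notes name STAR and hg38. How reads were counted, with which annotation and whether by strand, were not given in the sources used here. Of 26475 deposited lines, 32 held no value, and 26443 genes remained, 23884 of which matched GENCODE 29 by symbol for position, length and GC content.

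Values were used as log2(RPKM + 0.5), unscaled, for 12900 genes that reached 1 RPKM in 3 or more libraries. limma 3.58.1 in R 4.3.3 fitted 1 model of the 6 groups (12 residual degrees of freedom), with two-sided moderated tests (eBayes, trend), and p-values were adjusted by Benjamini-Hochberg over all genes within each of 9 contrasts and of 2 contrasts (HIF1A shRNA against KC7F2) added after the data were seen. No adjustment was made over contrasts, which share libraries. The fit was tested on simulated data. Depth was recovered from genes of up to 200 nt, whose low values are multiples of the value of 1 read. Of 2353 such genes, 154 to 387 per library were above 0 and could be used. Among their low values, 80.0 to 88.4% were whole within 2%. Reads of COL17A1 were recovered the same way from the gene's own values, and their intervals cover counting error only.

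The members, gene lists and tests were chosen with earlier results of these data known. A member was described where its adjusted p was below 0.05 or its change at least 0.5, with the interactions of such members; up to 3 called genes per list by adjusted p and the 3 genes nearest in pattern to LAMA3, LAMB3, COL17A1 and ITGB4 were named. 1 gene of the laminin and basement membrane list and 1 of the luminal markers are not reported here. Other settings were robust eBayes, a replicate block, quantile normalisation, median-ratio scaling, a pseudocount of 0.1 or 1, a filter at 5 RPKM or none, a fit of only the groups compared, each library left out, the 3 libraries rich in short genes left out, and removal of each library's length and GC trend (loess, 12201 genes). Promoter windows are RefSeq's on GRCh38.p14. Python 3.11.15 with numpy 2.4.6, pandas 2.3.3 and matplotlib 3.10.9 was used for the rest.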

Additional observations from a re-analysis of the deposited data

Results flagged for a closer look

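The effect of the FOXA1 shRNA differed between cells with and without the HIF1A shRNA for LAMB3 (interaction -1.96), COL17A1 (-1.86) and ITGA6 (-1.38), by the interaction term of the limma fit. The doubly infected cells also kept more FOXA1 mRNA than cells with the FOXA1 shRNA alone (64.5 against 34.1 RPKM), and its part in these differences was not tested. The effect of the FOXA1 shRNA also differed between untreated and KC7F2-treated cells for COL17A1 (-1.48) and ITGA6 (-0.83). Both calls sit just under the threshold, and that for COL17A1 depends on the added 0.5, since its ratio of reads was 140 in untreated and 216 in treated cells. For ITGA6 the values themselves are well above the floor, at 6.48 RPKM with KC7F2 and 10.9 with KC7F2 and the FOXA1 shRNA. Its call was nevertheless lost when any single library it rests on was left out. The same held with median-ratio scaling and without the 3 libraries rich in short genes.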

How the results depend on the processing

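The 50 member changes described were recomputed under each setting: 844 of the values kept their direction and side of the threshold, 49 lost the call, 6 gained it and 1 changed sign. All 6 gained calls were for the interaction of the shRNAs on LAMA3. The sign changed for the interaction of the shRNAs on ITGA3, which did not pass in the first place and was 0.0048 with the length and GC trend removed. A filter of at least 5 RPKM left 5 members to test, and with fewer genes the number called fell to 2 for FOXA1 knockdown, 3 for HIF1A knockdown, 2 for FOXA1 knockdown on KC7F2, 1 for the interaction with KC7F2, 4 for the HIF1A shRNA against KC7F2 and 3 for the same on FOXA1 knockdown. The interaction of FOXA1 knockdown with KC7F2, called for 2 members, was called for 0 with a pseudocount of 0.1, with median-ratio scaling, with only the groups compared and without the 3 libraries rich in short genes. Without these libraries FOXA1 knockdown on KC7F2 was called for 3 members instead of 5; the cause was not tested.

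Leaving out 1 library at a time gave 4 to 4 members called for FOXA1 knockdown, 6 to 7 for HIF1A knockdown, 0 to 0 for KC7F2, 4 to 5 for HIF1A knockdown on FOXA1 knockdown, 3 to 3 for KC7F2 on FOXA1 knockdown, 3 to 3 for FOXA1 knockdown on HIF1A knockdown and 3 to 7 for FOXA1 knockdown on KC7F2 (3 without KC7F2 1, 7 without KC7F2 2). It gave 3 to 4 for the interaction of the shRNAs, 0 to 1 for that with KC7F2, 6 to 7 for the HIF1A shRNA against KC7F2 and 5 to 6 for the same on FOXA1 knockdown.

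Samples with the same replicate number did not deviate together throughout (correlations of -0.21 to 0.25 over genes). For replicate 1 the correlations were positive between every pair of control, shHIF1A, double knockdown and KC7F2 (0.0746 to 0.25). Whether the numbers pair the libraries is therefore not settled. With the replicate block the interaction with KC7F2 was called for 1 member (COL17A1 lost, adjusted p = 0.0666) and LAMA3 joined the interaction of the shRNAs (adjusted p = 0.0316); no other member call changed. Median-ratio scaling shifted the median of all genes by 0.15 for FOXA1 knockdown on KC7F2 and by -0.11 for HIF1A knockdown on FOXA1 knockdown and for the HIF1A shRNA against KC7F2 there. Quantile normalisation moved the share of higher calls among all genes called by FOXA1 knockdown on HIF1A knockdown from 36.3 to 46.7%. For the interaction with KC7F2, 2 of the 10 genes called over the whole table were higher, 4 of 8 with median-ratio scaling and 9 of 25 with quantile normalisation. Of 73 changes of list genes recomputed in the same way, 19 lost their call in at least 1 setting and 0 changed sign. Depth limits COL17A1 in control and KC7F2 cells.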
